A study of Olea europaea with 6 samples.

Results

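FL683529_1 and FL684126_1 are 2 expressed sequence tags (ESTs) of olive (Olea europaea) that the study annotated with the synthesis of anthocyanins and other flavonoids. They are 2 of the 54615 probe sets tested on the array, 5543 of which stand for olive ESTs and 49072 for poplar gene models. Both come from a cDNA library of Leccino fruitlets, by the description that the study gives. FL683529_1 carries the terms for anthocyanin synthesis, flavonol regulation and the responses to UV-B, sucrose and oxidative stress. FL684126_1 carries the term for flavonoid synthesis alone. Both were chosen by their measured array values, FL683529_1 on the comparison of ripe with unripe fruit and FL684126_1 on the leaf comparisons. The leaf comparisons set mature against juvenile leaves in each year, and the bearing against the non-bearing year at each leaf stage. Those comparisons are therefore given as a description, and tests are given only for the comparisons that did not choose the EST.

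Anthocyanins, flavonols and condensed tannins are made by 1 branch of phenylpropanoid metabolism, which chalcone synthase opens by joining a phenylpropanoid unit to malonyl units. Later enzymes hydroxylate, reduce and glycosylate the product. Anthocyanins are the red to purple pigments that colour the skin of olives as they turn from green to black, and flavonols absorb UV light in leaves and fruits.

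RNA of cv. Ayvalık was hybridized to one-colour oligonucleotide arrays, with 11 arrays in 6 groups. Ripe fruit (RF) was picked in October and unripe fruit (UF) in July of 1 season, both from a fruiting tree. Mature leaf was taken in November and juvenile leaf in July, in a bearing year (ON-M, ON-J) and in the non-bearing year that followed it (OFF-M, OFF-J). The leaves came from a pair of neighbouring trees, so that bearing year, calendar year and tree cannot be told apart, and neither can leaf stage and month. Each group had 2 arrays except ON-M, which had 1, so that the spread of ON-M was taken from the other groups. The methods call the arrays of a group biological replicates, but nothing says that they came from separate trees. The p-values then reflect no more than the spread among these arrays, part of which may be technical, and with so few arrays each mean is imprecise.

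Values were log2 intensities as the authors normalized them. The random control set, which gives the background level, lay at 5.36 and 5.48 in RF, at 5.18 and 5.24 in UF and between 5.20 and 5.27 in leaves. The highest value on any array was between 15.63 and 15.78. The arrays differed in their olive signal: the median olive EST was at 9.83 and 10.22 in RF, at 11.04 on both UF arrays and between 10.66 and 11.43 in leaves, while the median of all probe sets stayed between 5.91 and 5.99. RF was thus lower in median olive signal, and the part of this shift in the differences between RF and UF was not tested. The photosystem EST GO243351_1 averaged 4.93 in RF and 13.10 in UF, and leaf arrays ran from 12.69 to 13.22. That EST was picked from the fruit comparison, so its fruit difference is no independent check of the labels. With UF inside the leaf range, it cannot tell UF from leaf. The files pair no gene names with the ESTs, and 0 olive ESTs had a match in the annotated gene table at hand. The functions named here are those of the study and were not checked.

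FL683529_1 was low in every leaf and in unripe fruit, and near the top of the array range in ripe fruit. Its log2 value was 15.21 and 15.05 in RF, against 6.17 and 6.15 in UF. The RF arrays lay above every other array by at least 7.53. On the leaf arrays it was 5.73 in ON-M, 6.65 and 6.85 in ON-J, 7.46 and 7.52 in OFF-M and 6.87 and 6.15 in OFF-J. The single ON-M array was the lowest of all 11, only 0.53 above the random control of that array, and the OFF-M pair was the highest among leaves, 2.22 and 2.27 above it. By group mean the order was RF (15.13 ± 0.11, SD, n = 2), OFF-M (7.49 ± 0.04), ON-J (6.75 ± 0.14), OFF-J (6.51 ± 0.51), UF (6.16 ± 0.01) and ON-M (5.73, 1 array). The arrays of OFF-J overlapped those of ON-J and of UF, which stood next to it in this order. The other neighbours did not overlap.

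The difference of FL683529_1 between RF and UF was 8.97 on the log2 scale (standard error 0.27), where differences are written as RF minus UF, the reverse of the sign used by the study. In array signal it was 501-fold higher in ripe fruit as deposited and 1008-fold higher with arrays centred on their olive medians. RF lay 0.58 and 0.70 below the highest value of its arrays and UF 0.98 and 0.91 above the random control, close to both ends of the measured range. It ranked 5 of 5543 olive ESTs by this difference, which is the comparison that chose it. In a bulk sample, more cells of a type and more RNA per cell cannot be told apart.

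In leaves, none of the comparisons of FL683529_1 passed the test, which asked for a Benjamini-Hochberg adjusted p under 0.05 over all probe sets in limma and a log2 difference of at least 2. In the bearing year, mature minus juvenile leaf was -1.02 (95% interval -1.77 to -0.27, limma adjusted p = 0.33), in a comparison where 0.553% of all probe sets were called. In the non-bearing year it was 0.98 (0.37 to 1.59, limma adjusted p = 0.223), where 0.385% were called. The EST was thus lower in the mature leaf array of one year and higher in both mature leaf arrays of the other. The difference between the 2 years in this leaf stage effect, the interaction, was -1.998 (-2.96 to -1.04, limma adjusted p = 0.11), where 0.192% were called. Between mature leaves, ON-M minus OFF-M was -1.76 (-2.51 to -1.01, limma adjusted p = 0.142), where 0.156% were called. With olive ESTs alone in the fit, the limma adjusted p was 0.0321 for ON-M minus ON-J, 0.0158 for OFF-M minus OFF-J, 0.00921 for ON-M minus OFF-M and 0.00915 for the interaction, with every size still under 2. All but the second of these rest on the single ON-M array. Between juvenile leaves, ON-J minus OFF-J was 0.24 (-0.37 to 0.85, limma adjusted p = 0.957), and its sign turned when OFF-J array 2 was left out (-0.12) or the arrays were centred on their olive medians (-0.12). limma called 0 of all probe sets between the juvenile leaves (0%), although 53 passed at an unadjusted p under 0.05 with the same size, and the methods' t-test called 16 before and 0 after adjustment.

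FL684126_1 was also highest in ripe fruit, and it was high in mature leaves of the non-bearing year as well. Its log2 value was 15.20 and 15.22 in RF, against 8.27 and 8.28 in UF. The difference of RF minus UF, which did not choose this EST, was 6.94 (standard error 0.28, 95% interval 6.30 to 7.57, limma adjusted p = 1.33e-06), a 122-fold higher array signal in ripe fruit as deposited and a 246-fold higher one with olive-median centring. It rose in RF in a comparison where 3.30% of all probe sets and 3.73% of olive ESTs were called higher, and it ranked 14 of 5543 olive ESTs. Its call held under every alternative that gave a test, and the largest value, 7.94, came from centring on olive medians. Both ESTs were 0.53 to 0.70 below the highest value of the array in RF, so that little range was left above them there.

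**Figure D1:**
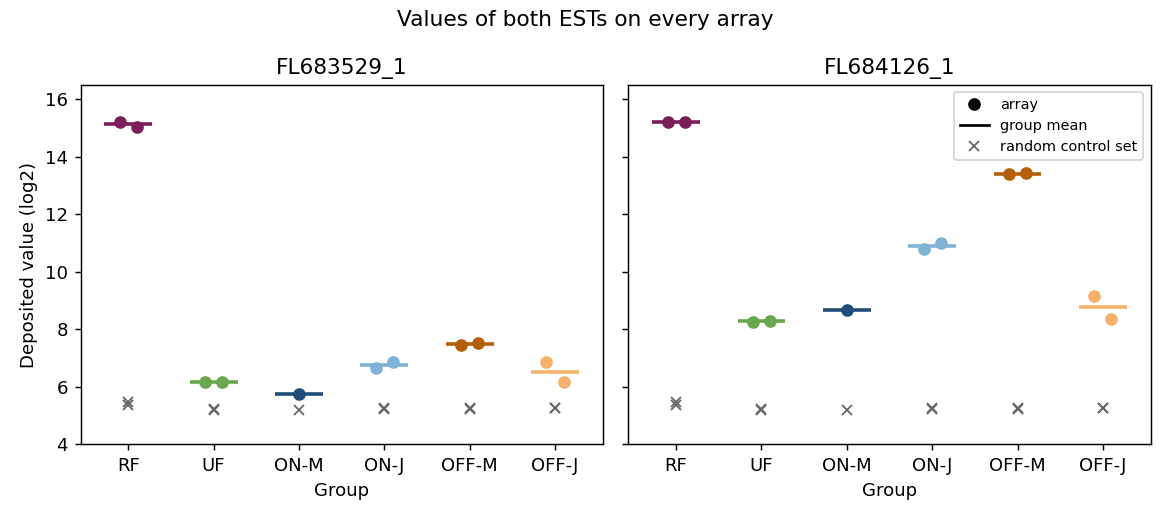
Log2 values of FL683529_1 and FL684126_1 on each of the 11 arrays, by group, with the random control set as crosses. Points are single arrays and horizontal lines are group means. The RF arrays of both ESTs lie above 15, and only FL684126_1 has leaf arrays above 13, those of OFF-M.

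The leaf values of FL684126_1 spanned a wide range. They were 8.65 in ON-M against 10.79 and 10.99 in ON-J, and 13.40 and 13.44 in OFF-M against 9.16 and 8.36 in OFF-J. On these arrays mature leaf was thus below juvenile leaf in the bearing year and above it in the other, with no overlap of arrays in either. By group mean the order was RF (15.21 ± 0.02, SD, n = 2), OFF-M (13.42 ± 0.03), ON-J (10.89 ± 0.14), OFF-J (8.76 ± 0.57), ON-M (8.65, 1 array) and UF (8.27 ± 0.01). Only OFF-J and ON-M overlapped among neighbours, with means 0.10 apart. RF lay 1.79 above OFF-M and OFF-M lay 2.53 above ON-J.

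As differences, which chose the EST and were not tested, mature minus juvenile leaf was -2.24 (standard error 0.34) in the bearing year and 4.66 (0.28) in the non-bearing year. ON-M minus OFF-M was -4.76 (0.34) and ON-J minus OFF-J was 2.13 (0.28). The leaf stage difference of the bearing year minus that of the non-bearing year, the interaction, was -6.90 (0.44), with 1 ON-M array behind it. Among the 5543 olive ESTs, the non-bearing stage difference ranked 4 from the top and ON-J minus OFF-J 5 from the top, while ON-M minus OFF-M ranked 8 and the interaction 4 from the bottom. The OFF-J arrays were far apart, and without array 1 or array 2 the OFF-M minus OFF-J difference was 5.06 or 4.26. Array 1 of OFF-J was the higher one for 12 of the 13 members and listed transcripts, as it was for 72.7% of olive ESTs.

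**Figure D2:**
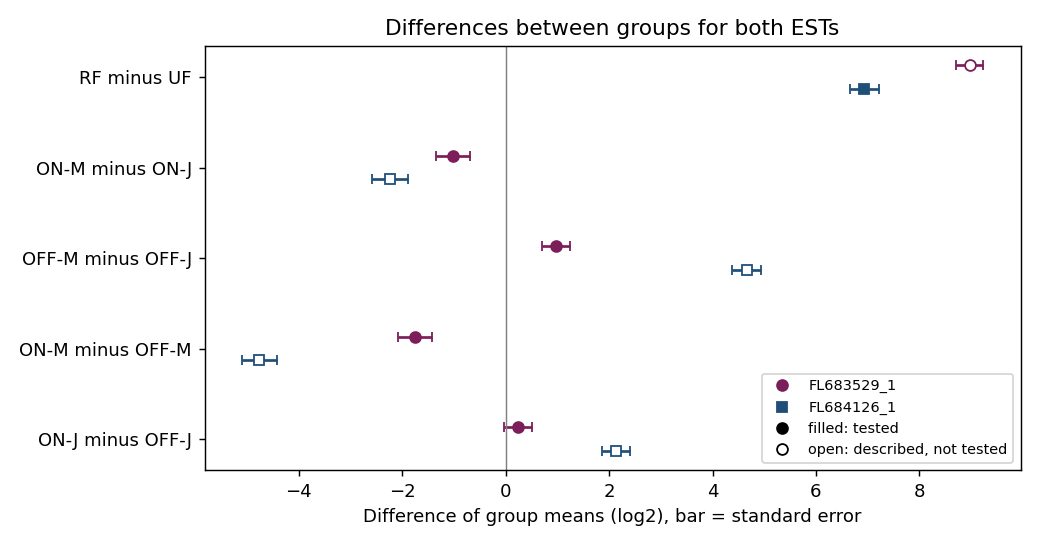
Log2 differences of both ESTs in the fruit comparison and the 4 leaf comparisons, with standard errors as bars. The filled symbols are the tested comparisons and the open symbols those that chose the EST. The points of both ESTs lie on the same side of 0 in each comparison, with an ON-J minus OFF-J of only 0.24 for FL683529_1 and values of 6.94 and 8.97 for RF minus UF.

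Set side by side as deposited, both ESTs had the same sign in the fruit and the 4 leaf comparisons, which share groups. The sign of FL683529_1 in ON-J minus OFF-J was not settled, since it turned with olive-median centring and without OFF-J array 2, where FL684126_1 remained above 0 (1.77 and 1.73). The Pearson correlation of their log2 values was 0.82 over the 11 arrays and 0.91 over the 9 arrays without RF. It is a description over arrays that share groups and normalization.

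Another 11 transcripts with flavonoid or phenylpropanoid terms were taken from the leaf comparisons of the study, so that only the fruit comparison was free of their choice. The list was not complete: it left out GO243685_1, to which the study gave the same phenylpropanoid pathway entry as to the listed GO245678_1. Of the 11, 4 were higher and 2 lower in RF than in UF, and 5 did not pass. Their median difference was 1.68, against -0.11 over olive ESTs and 0.03 over all probe sets. The list held 7 olive ESTs, of which 2 were called higher and 2 lower, where 3.73% and 17.3% of olive ESTs were called, and 4 poplar probe sets, of which 2 were called higher. Over all probe sets 3.30% were called higher and 3.46% lower, and of all poplar probe sets 3.25% were called higher. In all, 1800 probe sets were called higher and 1891 lower, against 9095 and 769 with arrays centred on their olive medians, which adds 1.01 to RF minus UF of every probe set, the poplar ones included.

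Among the 8 with a flavonoid term, 3 were higher, 2 were lower and the median was -0.04. GO243553_1, annotated with anthocyanin synthesis, was at 14.61 and 14.79 in RF, against 10.79 and 10.81 in UF (difference 3.90, standard error 0.28, limma adjusted p = 3.32e-05). FL684182_1, annotated with flavonoid synthesis and oxidation-reduction, was at 15.68 on both RF arrays, against 11.66 and 11.86 in UF (3.92, standard error 0.31, limma adjusted p = 6.07e-05). The groups of both ESTs lay well apart, and FL684182_1 was close to the highest value of the array in RF.

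The poplar probe set eugene3.00140920, annotated as chalcone synthase, was at 8.48 and 6.81 in RF, against 4.78 and 4.71 in UF (2.90, standard error 0.49, limma adjusted p = 0.00323). Its RF arrays stood far apart. Its UF arrays lay below the random control, and how large the difference comes out depends on that background. It was 2.06 without RF array 1 and 3.73 without RF array 2.

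Both lower ESTs were near background in ripe fruit. GO243114_1, annotated with flavonol synthesis, was at 5.37 and 6.16 in RF, against 11.41 and 11.58 in UF (-5.73, standard error 0.29, limma adjusted p = 4.86e-06). GO244589_1, annotated with the positive regulation of flavonoid synthesis, was at 5.62 and 5.14 in RF, against 11.14 and 10.86 in UF (-5.62, standard error 0.28, limma adjusted p = 4.23e-06). GO243553_1 and GO243114_1, with their anthocyanin and flavonol terms, thus differed in opposite directions between ripe and unripe fruit.

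The other 3 with a flavonoid term did not pass. GO245040_1, annotated with anthocyanin accumulation under UV and with cell wall terms, differed by -0.46 (95% interval -1.19 to 0.28). The probe set grail3.0047019501, annotated as the beta tubulin TUB6, differed by 0.37 (-0.49 to 1.23). The probe set eugene3.00290281, annotated as UGT73B2, a glucosyltransferase of flavonols in Arabidopsis, differed by -0.47 (-1.33 to 0.38), with all its fruit arrays between 4.69 and 5.46, around the random control. The sign of the differences of GO245040_1 and eugene3.00290281 turned to 0.55 and 0.54 when arrays were centred on their olive medians.

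Of the 3 transcripts of the wider phenylpropanoid list, 1 was called higher. It was the poplar probe set grail3.0001090401, annotated as ELI3-1 with a lignin term, at 12.10 and 11.91 in RF, against 9.58 and 9.66 in UF (2.38, standard error 0.34, limma adjusted p = 0.00136). GO245678_1 differed by 1.71 and GO245800_1 by 1.68, with limma adjusted p of 0.00196 and 0.00576 but a size under 2. With olive-median centring they differed by 2.72 and 2.69 and were called. After Benjamini-Hochberg adjustment the methods' t-test on the fruit arrays called 0 of the 11 transcripts.

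**Figure D3:**
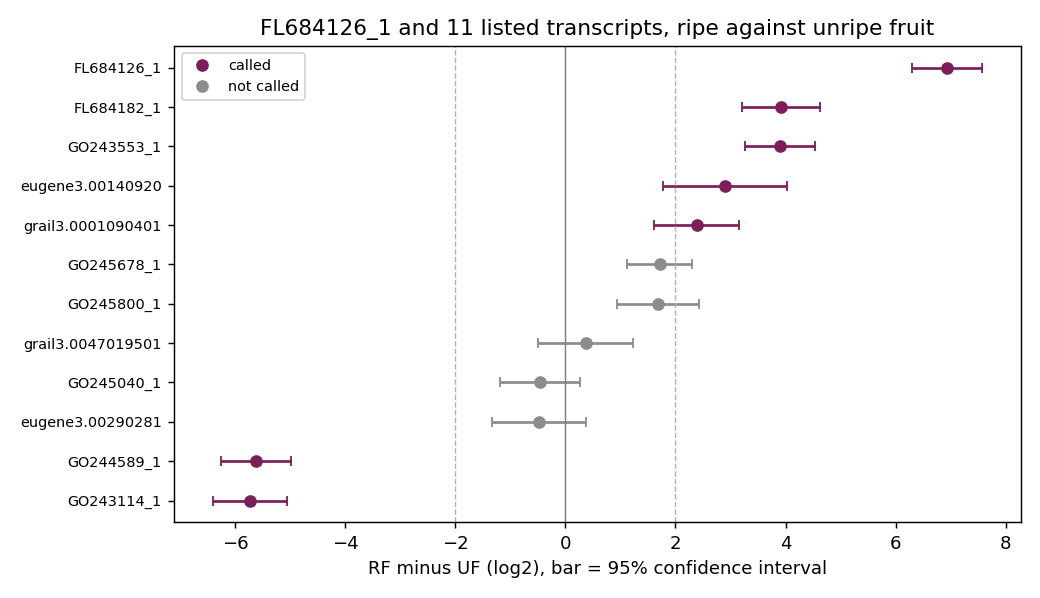
RF minus UF log2 difference of FL684126_1 and the 11 listed transcripts, with 95% confidence intervals, those called in purple and the others in grey; dashed lines mark a difference of 2 in either direction. Values run from -5.73 for GO243114_1 to 6.94 for FL684126_1.

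In leaves the values of the 11 transcripts describe how they were chosen. In the bearing year, mature minus juvenile leaf was below 0 for 7 of them (63.6%), with 5 at -2 or less (45.5%). The 7 listed olive ESTs had 6 below 0 (85.7%, against 63.6% of all olive ESTs) and 5 at -2 or less (71.4%, against 6.44%). The 4 listed poplar sets had 1 below 0 (25%, against 43.4% of all probe sets) and 0 at -2 or less. In the non-bearing year, mature minus juvenile leaf was above 0 for 6 of 11 (54.5%), with 3 at 2 or more (27.3%) and 0 at -2 or less. The 7 listed olive ESTs had 4 above 0 (57.1%, against 58.7% of all olive ESTs) and 2 at 2 or more (28.6%, against 3.16%). The 4 listed poplar sets had 2 above 0 (50%, against 46.2% of all probe sets) and 1 at 2 or more (25%, against 0.432%). The 8 with a flavonoid term had 3 above 0 and 5 below, with a median of -0.34. The 3 of the phenylpropanoid list were all above 0, with a median of 2.36, and 2 of them were at 2 or more. Between mature leaves, ON-M was below OFF-M for 8 of 11 (72.7%), with a median of -1.56. This held for 7 of the 7 listed olive ESTs (100%, against 73.4% of all olive ESTs), with a median of -1.98 against -0.26. It held for 1 of the 4 listed poplar sets (25%, against 45.8% of all probe sets). The single ON-M array, which was also the leaf array with the lowest olive median, stands behind each of the bearing-year and mature leaf values.

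The poplar probe set annotated as chalcone synthase (eugene3.00140920) was at 5.80 in ON-M and at 6.00 and 6.46 in ON-J. It was at 8.32 and 8.13 in OFF-M and at 5.70 and 4.98 in OFF-J, where ON-M and OFF-J lay near the random control. Like FL684126_1 it was highest among leaves in OFF-M, by 2.89 over OFF-J, and ON-M was lower than OFF-M by a difference of -2.43. The flavonol-annotated GO243114_1 was at 8.94 in ON-M against 12.23 and 12.26 in OFF-M, and the anthocyanin-annotated GO243553_1 at 8.21 in ON-M against 10.94 and 11.33 in OFF-M. UGT73B2 (eugene3.00290281) ran the other way, at 9.75 in ON-M, 4.95 and 5.92 in ON-J, 5.12 and 5.89 in OFF-M and 6.24 and 6.04 in OFF-J. The ON-M array was the highest of all 11 for that probe set. Of the 8 with a flavonoid term, ON-M was below OFF-M for 6 and above it for 2. That difference was only -0.41 for GO244589_1, and it was 1.42 for grail3.0047019501. Mature leaf of the non-bearing year was below juvenile leaf for GO244589_1 (-1.55) and FL684182_1 (-1.22), unlike FL683529_1 and FL684126_1.

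**Figure D4:**
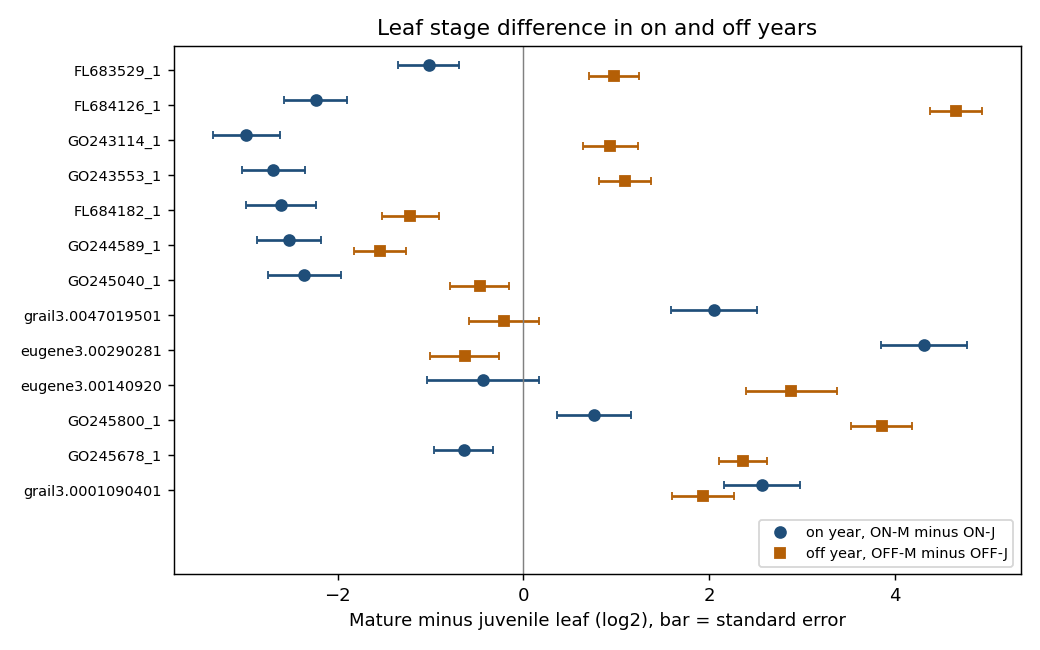
Mature minus juvenile log2 difference of both ESTs and the 11 listed transcripts, in the bearing year as circles and in the non-bearing year as squares, with standard errors as bars. FL684126_1 has the widest gap between the years, from -2.24 to 4.66.

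The probe sets with the pattern most like each EST were found by Pearson correlation over the 11 arrays, among the 7872 whose group means spanned at least 2 on the log2 scale. FL683506_1 was closest to FL683529_1, with r = 0.9988 over 11 arrays and 0.964 over the 9 without RF. It was at 15.23 and 15.17 in RF, against 6.34 and 5.91 in UF, and at 5.97 in ON-M, 6.69 and 6.70 in ON-J, 7.80 and 7.70 in OFF-M and 6.84 and 6.07 in OFF-J. Whether these 2 ESTs are pieces of 1 transcript was not tested. The next 4 were the poplar probe sets fgenesh4_pg.C_LG_VI000151 (0.994), LG_XIV_3763130 (0.994), eugene3.00970040 (0.993) and gw1.XIII.1865.1 (0.993). Without RF their r was 0.84, 0.73, 0.74 and 0.67 in the same order, and on each of those 9 arrays they lay below the random control, so that they spanned 2 on the log2 scale only through RF. Over 11 arrays 1380 probe sets had r above 0.9. Over the 9 arrays without RF there were 30, and 6 were above 0.9 in both.

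Fewer profiles were like that of FL684126_1, with 53 probe sets above 0.9 over 11 arrays, 74 over the 9 without RF and 9 in both. GO243399_1, annotated with biosynthetic process, came first with r = 0.986. It was at 15.23 and 15.20 in RF, against 10.06 and 10.01 in UF, and at 10.01 in ON-M, 12.00 and 12.31 in ON-J, 13.76 and 13.87 in OFF-M and 11.35 and 11.00 in OFF-J. FL683787_1, with no annotated process, followed with 0.984, at 13.60 and 13.57 in RF, against 3.98 and 4.37 in UF, and at 10.12 and 10.01 in OFF-M. GO244910_1 (0.955), FN998740_1 (0.936) and fgenesh4_pg.C_scaffold_212000004 (0.934) were next. The chalcone synthase probe set had r = 0.89 with FL684126_1 over 11 arrays and 0.97 over the 9 without RF, the highest of the 11 listed transcripts. The others ran from -0.79 for GO244589_1 to 0.82 for GO243553_1 over 11 arrays, and from -0.62 for grail3.0047019501 to 0.59 for GO243114_1 without RF. The leaf comparisons that chose all of these transcripts make up most of the arrays without RF. These correlations share groups, array depth and normalization and are given as descriptions.

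**Figure D5:**
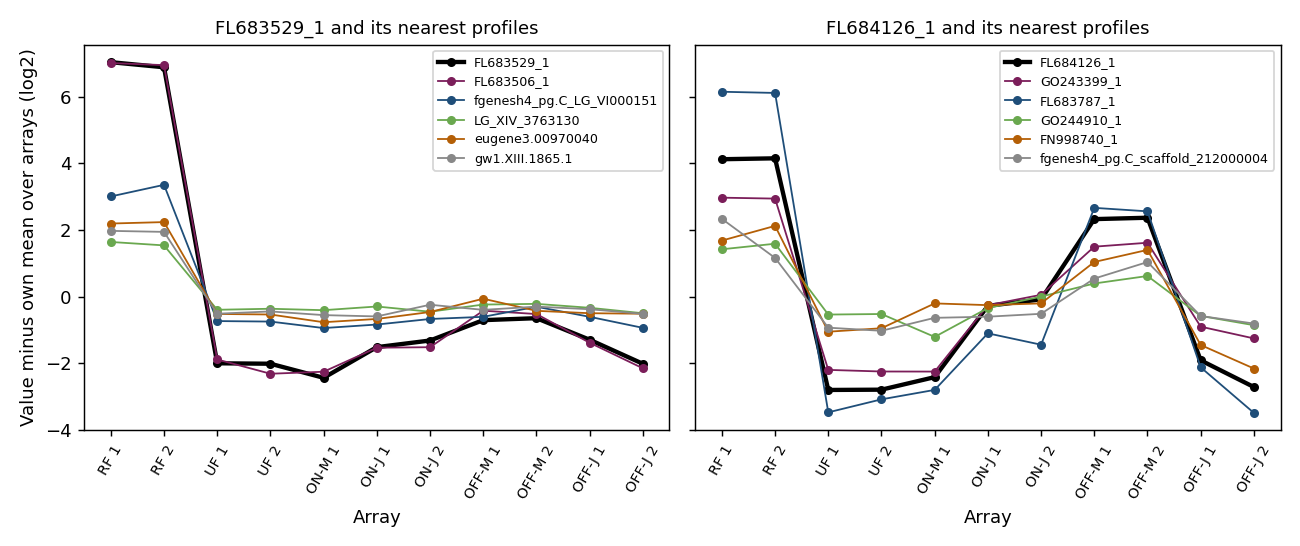
Log2 values over the 11 arrays, each minus its own mean over the arrays, of each EST (black) and the 5 probe sets most like it by Pearson correlation (coloured). FL683506_1 follows FL683529_1 closely on every array, while the 4 poplar profiles beside it are nearly flat outside RF, and the profiles on the right are high in both RF and OFF-M.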

How the data were processed

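Fruit and leaf RNA was labelled with Cy3 and hybridized to one-colour arrays. The authors scanned them, quantified spots with DEVA, subtracted background, used RMA with quantile normalization, averaged a transcript's spots and deposited a log2 value per probe set and array. Quantile normalization forces arrays to 1 distribution, so that a shift of olive ESTs relative to poplar sets remains within it. The RMA version is not given in the sources used here. Their averaged log2 table equalled the array means.

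The deposited values were fitted without further normalization in limma 3.58.1 (R 4.3.3), with 1 mean per group over 11 arrays, 5 residual and 3.67 prior degrees of freedom, two-sided. The 1 random control set was left out of the tests. A call needed a Benjamini-Hochberg adjusted p under 0.05 over 54615 probe sets and a log2 difference of at least 2. Scripts were tested on simulated data. Python 3.11.15, pandas 2.3.3 and matplotlib 3.10.9 served for figures.

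The ESTs and the lists were chosen with earlier results of these data known. The text names the 2 ESTs, every listed flavonoid or phenylpropanoid transcript, the 5 probe sets most like each EST and the random control. GO243351_1 was named to describe the fruit and leaf groups. Alternatives were other centring, normalization repeated, another prior, filters, olive ESTs only, the methods' t-test, single organs, a replicate block, each array left out, and, as an addition made once the values were known, a fit without RF. The study's qRT-PCR, which covered FL684126, was not used in the fits or the tests. Its signs were opposite to those of the arrays for ON-M minus ON-J and for ON-J minus OFF-J. No probe or EST sequence was analysed here.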

Additional observations from a re-analysis of the deposited data

Results flagged for a closer look

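For 7 of the 13 members and listed transcripts (53.8%), against 26.8% of olive ESTs and 17.9% of all probe sets, the mature minus juvenile leaf difference had opposite signs in the bearing and the non-bearing year on every array. The leaf comparisons chose 12 of these 13, so nothing is read from the share. FL683529_1 differed by -1.02 and 0.98, with an interaction of -1.998 that did not pass limma (adjusted p = 0.11). For the other 6 the difference between years was not tested, since these comparisons chose them. The bearing-year and non-bearing-year values and the interaction were -2.24, 4.66 and -6.90 for FL684126_1, then -2.98, 0.93 and -3.92 for GO243114_1, and -2.69, 1.10 and -3.79 for GO243553_1. They were 4.31, -0.63 and 4.95 for eugene3.00290281, -0.44, 2.89 and -3.32 for eugene3.00140920, and -0.64, 2.36 and -3.01 for GO245678_1. Every bearing-year value rests on 1 ON-M array.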

How the results depend on the processing

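Centring arrays on their olive medians moved differences by 1.01 in RF minus UF and by -0.41 to 0.71 in the leaf comparisons. FL683529_1 RF minus UF became 9.98, and its ON-J minus OFF-J turned to -0.12, from -0.12 to 0.60 with each array left out. FL684126_1 became -1.58 for ON-M minus ON-J, 4.25 for OFF-M minus OFF-J, -4.06 for ON-M minus OFF-M, 1.77 for ON-J minus OFF-J and -5.83 for the interaction. With each array left out, its OFF-M minus OFF-J ran from 4.26 to 5.06, its ON-J minus OFF-J from 1.73 to 2.53 and its interaction from -7.30 to -6.50, both ends without an OFF-J array. In RF minus UF, GO245040_1 turned to 0.55 and eugene3.00290281 to 0.54 with olive centring, and grail3.0047019501 to -0.10 without RF array 1 (range -0.10 to 0.84). The listed transcripts called higher fell to 2 with olive ESTs only, where poplar sets were not in the test. After Benjamini-Hochberg adjustment the methods' t-test called 0 listed transcripts higher and 0 lower, and 39 of all probe sets. Before adjustment it called 3 listed transcripts higher and 2 lower, and 2627 of all probe sets. Without RF array 1, 3408 of all probe sets were called higher and 3089 lower. FL684126_1 kept its fruit call under that t-test (adjusted p = 0.0279). The 5 most alike probe sets shared 2, 1, 1 and 1 with those by Spearman's rho, Euclidean distance, group means and arrays without RF for FL683529_1, and 1, 2, 2 and 2 for FL684126_1.

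Deviations of same-numbered arrays from their group means correlated between -0.05 and 0.15 over 10 pairs of groups, and 3 exceeded 0.1. With at most 2 arrays per group, this does not settle whether array numbers paired the samples. With the number as a replicate block, FL684126_1 RF minus UF was 6.94 (limma adjusted p = 1.04e-05), the FL683529_1 interaction -2.06 (0.173), and 4 listed transcripts were called higher and 2 lower, with no call changed. The t-test and leaving out ON-M could not be run for ON-M comparisons. The cause of these changes was not tested. Values near the random control or near the array maximum bound what a difference can show.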
